A study of Mus musculus with 8 samples.

Results

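The genes described here are Trp53, which encodes the transcription factor p53, a set of genes that p53 is known to activate, and genes of the apoptosis machinery. They are a list of gene names, drawn up with earlier results of these data known, so their counts are descriptions and not independent evidence of a direction. Of these genes, 15 form the p53 arm, 11 the BCL2 family and 9 the death receptors, caspases and their partners. All 35 were found among the 56691 gene IDs of the deposited count table, and all 35 were among the 19912 genes that passed the filter on low counts. The study measured ribosome-associated mRNA of the mouse ventral tegmental area (VTA), a midbrain site of dopamine neurons. It asked which messages of these neurons change when Ogt is knocked down, Ogt being the gene of O-GlcNAc transferase, the enzyme that adds the sugar O-GlcNAc to proteins. The knockdown group is Ogt flox+/Y (4 libraries, replicates 2, 3, 4 and 5) and the control group is Ogt flox-/Y (4 libraries, replicates 3, 4, 5 and 6). The Y in both genotypes marks the mice as male; the sources used here do not give their age. Both groups were injected in the VTA with 2 viruses, named AAV-TH-Cre and AAV-Flex-NBL10, so controls carry the viruses and Cre as well. Cre in the first virus is driven by the promoter of tyrosine hydroxylase, an enzyme of dopamine synthesis, and the HA-tagged NBL10 protein of the other is the handle by which ribosomes were enriched. Whether each library came from its own animal is not stated, so the p-values below cover the spread between libraries, and that spread may be technical only.

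The p53 protein is held at a low level by MDM2, a ubiquitin ligase that is itself a p53 target, and rises when DNA is damaged or ribosome assembly fails. It activates genes that stop the cell cycle, genes of metabolism and repair, and genes that promote death, among them the BCL2 family members Bax, Bbc3 and Pmaip1. In the mitochondrial route to apoptosis, BAX and BAK1 open the outer membrane unless BCL2-like proteins restrain them, and the released cytochrome c assembles with APAF1 and caspase-9. In the receptor route, ligands of the tumour necrosis factor family activate caspase-8 through receptors such as FAS. Neurons that no longer divide also express many of these genes.

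Library totals ranged from 49802305 to 147747191 reads, and the detection floor of 3 reads was worth 0.0212 to 0.0626 CPM, counting error alone considered. CPM are read counts scaled to library size, here by the trimmed mean of M values (TMM). The Ogt message fell from 126 ± 22.8 to 49.8 ± 17.0 CPM (SD, n = 4 each; log2 fold change -1.34, SE 0.23, edgeR adjusted p = 0.00243), and the groups did not overlap. The count covers all exons, and the sources used here do not say which of them are floxed. Markers of dopamine neurons were detected in every library, and 10 of 12 fell, Th and Slc6a3 among them. Aldh1a1 alone rose (2.3-fold, edgeR adjusted p = 0.00298), to 1323 to 1951 CPM in knockdown, and Lmx1b did not pass the test. The 11 markers other than Aldh1a1 summed to 1508 to 3383 CPM in controls and 461 to 726 CPM in knockdown, and all 12 to 2167 to 3881 and 1801 to 2437 CPM. Control replicate 3 held the top of both control ranges, with the other controls at 1508 to 1837 and 2167 to 2816 CPM. Markers of other cells were detected too, none of them at 0 in all libraries. Astrocyte markers summed to 3910.2 to 5797 CPM in control replicates 4, 5 and 6, to 1539.7 in control replicate 3 and to 9881 to 14014 in knockdown, and 3 of 10 rose. Oligodendrocyte markers summed to 1094 to 1676 CPM in controls and 1760 to 4312 in knockdown (6 of 10 rose). Microglia markers summed to 30.5 to 53.9 CPM in controls and 62.1 to 178 in knockdown (9 of 12 rose). Beside these marker counts, 13.4% of all genes tested rose and 15.1% fell. Control replicate 3 stood apart in its endothelial markers (1140.1 CPM, against 31.7 to 37.6 in the other controls and 45.9 to 72.0 in knockdown) and in its pericyte and smooth muscle markers (576 CPM, against 23.6 to 27.1 and 39.5 to 60.7). Knockdown replicate 3, which shares the number of that library, held the highest knockdown value for 15 of the 35 genes. In bulk samples enriched by a tag, more cells of a type, more RNA per cell and a different degree of enrichment cannot be told apart.

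Of the 35 genes, 19 rose in knockdown (54.3%), 1 fell (2.86%) and 15 did not pass the test. Over all 19912 genes tested, 28.5% changed, 13.4% up and 15.1% down (edgeR's quasi-likelihood test, Benjamini-Hochberg adjusted p under 0.05). The median log2 fold change was 0.53 for the 35 genes and 0.00 for all genes, and it was above 0 for 30 of the 35 (85.7%) and for 50.1% of all genes. Groups did not overlap for 18 genes that were higher and 1 that was lower in knockdown (19 in all), against 17.1% and 18% of all genes (35.1% in all). The count of 19 was larger without control replicate 3 (21, against 18.1% of all genes) and without both libraries numbered 3 (25, against 23.5%). Genes that fell numbered 2 in both cases, against 16.8% and 23.3% of all genes. It was 12 without knockdown replicate 5 (9.26% of all genes) and 12 without control replicate 6 (8.43%). A score of the astrocyte, oligodendrocyte and microglia markers (the mean over genes of log2 CPM in SD units) lay between 0.319 and 1.19 in knockdown and between -0.934 and -0.326 in controls. With that score as a covariate in edgeR, 0 of the 35 genes and 0 of all 19912 passed. At an unadjusted p under 0.05, 5 of the 35 were higher and 0 lower, against 603 and 854 of all 19912. All 19 risen genes kept a log2 fold change above 0 in that fit, but its size moved in both directions. It was 0.33 for Ccng1 and 0.60 for Tnfrsf1a, against 1.42 and 1.91 without the score. For Btg2 and Bbc3 it was 1.57 and 1.56, against 0.67 and 1.07. Genotype and the marker score do not overlap, so their parts in these results cannot be told apart.

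**Figure D1:**
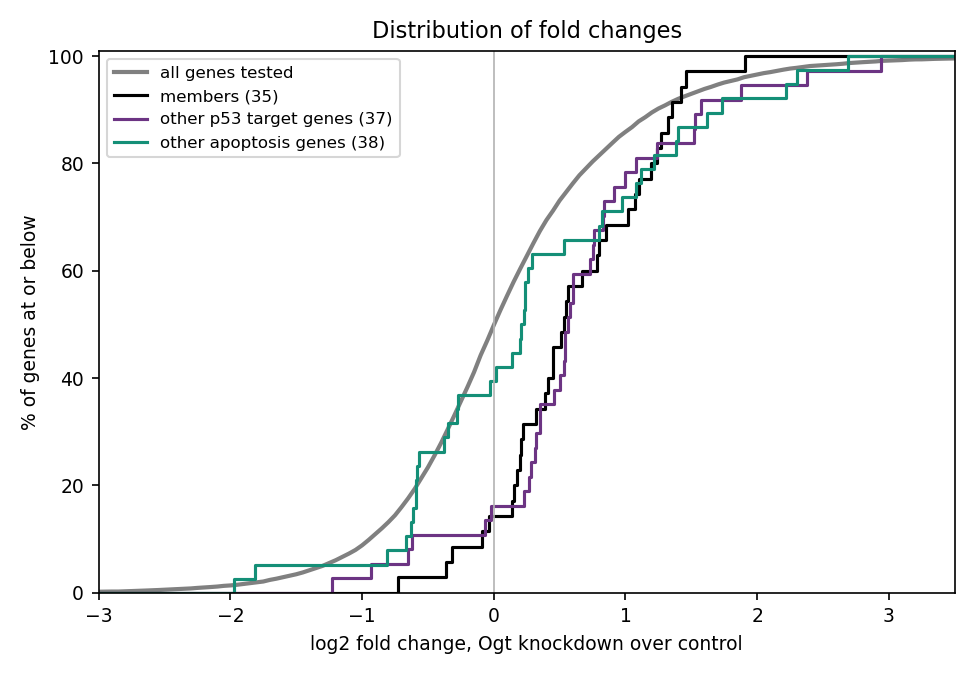
The cumulative percentage of genes (y axis) at or below each log2 fold change of Ogt knockdown over control (x axis), for all genes tested (grey), the 35 members (black), 37 other p53 target genes (purple) and 38 other apoptosis genes (green). The black, purple and green curves all cross 0 at a lower percentage than the grey curve, with 85.7%, 83.8% and 60.5% of genes above 0 against 50.1%. The medians are 0.53, 0.56 and 0.22 against 0.00.

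In the p53 arm, 10 of 15 genes rose, 0 fell and 5 did not pass the test, with a median log2 fold change of 0.56 and a value above 0 for all 15. No member of this arm was lower at an unadjusted edgeR p under 0.05 (0 of 15, against 4062 of all 19912 genes). DESeq2 and limma-voom also called 0 lower, against 9.72% and 24.9% of all genes. The 10 became 6 when knockdown replicate 4, knockdown replicate 5, control replicate 4 or control replicate 6 was left out, where 9.26%, 9.26%, 8.12% and 8.43% of all genes rose, against 13.4% with all libraries. The mean log2 CPM of the arm was 5.08, 5.53, 5.74 and 5.61 in control replicates 3, 4, 5 and 6 and 6.27, 6.24, 6.28 and 6.38 in knockdown replicates 2, 3, 4 and 5. The arm was lowest in control replicate 3. That library had the least astrocyte marker signal and the most vascular and dopamine neuron marker signal.

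Of the regulators, the Trp53 message (ENSMUSG00000059552.14, chromosome 11, 69471185 to 69482699, GRCm39) stood at 23.0, 24.6, 27.5 and 28.6 CPM in control replicates 3, 4, 5 and 6. In knockdown replicates 2, 3, 4 and 5 it stood at 36.9, 24.9, 34.2 and 41.3 CPM. Knockdown replicate 3 lay among the controls and the other 3 knockdown libraries above them. Trp53 did not pass the test (1.32-fold, log2 fold change 0.41, SE 0.17, edgeR adjusted p = 0.0985), but passed when knockdown replicate 3 was left out (adjusted p = 0.0136) and with upper quartile scaling (0.0404). Mdm2, the ligase that targets p53 for degradation (ENSMUSG00000020184.16, chromosome 10, 117524780 to 117546663), had 37.6, 54.1, 64.7 and 55.3 CPM in control replicates 3, 4, 5 and 6. It had 133, 126, 126 and 126 CPM in knockdown replicates 2, 3, 4 and 5. Every knockdown library was above every control, and the spread within the knockdown group was small. Mdm2 rose 2.41-fold, from 53 ± 11.3 to 128 ± 3.43 CPM (SD, n = 4 each; log2 fold change 1.27, SE 0.16, edgeR adjusted p = 0.00062). Mdm4, the related protein that inhibits p53 without ligase activity of its own, had 70.9, 54.5, 54.2 and 54.6 CPM in the controls and 87.2, 74.6, 75.3 and 70.5 CPM in knockdown, in the same order. Control replicate 3 was the high control and just above the lowest knockdown library. Mdm4 rose 1.31-fold (log2 fold change 0.39, SE 0.13, edgeR adjusted p = 0.0465). Its call was lost without knockdown replicate 2, 4 or 5 or control replicate 4, 5 or 6 (adjusted p = 0.0717 to 0.147). Per kilobase of exon, the ratio of Mdm2 to Trp53 CPM within a library was 1.3, 1.75, 1.88 and 1.54 in controls and 2.87, 4.02, 2.94 and 2.42 in knockdown, so the groups did not overlap. That ratio is a description with no test.

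Targets that act on the cell cycle and on growth signalling rose in 5 of 5 cases, with a median log2 fold change of 1.02. Cdkn1a encodes p21, the inhibitor of cyclin-dependent kinases through which p53 arrests the cycle (ENSMUSG00000023067.15, chromosome 17, 29309950 to 29319701). It had 65.8, 96.0, 145 and 120.2 CPM in control replicates 3, 4, 5 and 6 and 209, 218, 215 and 274 in knockdown replicates 2, 3, 4 and 5. Knockdown replicate 5 was highest and control replicate 3 lowest, with no overlap. Cdkn1a rose 2.15-fold, from 107 ± 33.7 to 229 ± 29.9 CPM (SD, n = 4 each; log2 fold change 1.10, SE 0.22, edgeR adjusted p = 0.00549). Ccng1, which encodes cyclin G1, a p53 target that acts with phosphatase 2A on MDM2, had 58.5, 113, 157 and 133 CPM in controls and 345, 306, 293 and 289 in knockdown. The lowest knockdown library had a higher level than the highest control, and control replicate 3 was again lowest. Ccng1 rose 2.67-fold (log2 fold change 1.42, SE 0.26, edgeR adjusted p = 0.00331), and 2.29-fold without control replicate 3. Phlda3, a pleckstrin-homology protein that restrains AKT, had 165, 248, 278 and 259 CPM in controls and 367, 619, 425 and 517 in knockdown. Its groups did not overlap, and the knockdown libraries were spread widely. Phlda3 rose 2.03-fold (log2 fold change 1.02, SE 0.21, edgeR adjusted p = 0.00578). Btg2, an antiproliferative gene that neuronal activity also induces, had 38.2, 23.0, 24.2 and 22.4 CPM in controls and 32.9, 55.5, 40 and 43.2 in knockdown. Control replicate 3 lay above knockdown replicate 2, and the other controls below all knockdown libraries. Btg2 rose 1.59-fold (log2 fold change 0.67, SE 0.22, edgeR adjusted p = 0.0418). The call was lost without knockdown replicate 3, 4 or 5 or control replicate 4, 5 or 6 (adjusted p = 0.0743 to 0.119). Plk2, a polo-like kinase that p53 induces and that acts at synapses, had 62.4, 56.2, 56.9 and 57.9 CPM in controls and 72.0, 84.2, 86.0 and 93.9 in knockdown. The controls lay close together and below every knockdown library. Plk2 rose 1.44-fold, from 58.4 ± 2.78 to 84.0 ± 9.05 CPM (SD, n = 4 each; log2 fold change 0.53, SE 0.12, edgeR adjusted p = 0.00814).

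Among the 7 targets linked to stress, repair and death outside the BCL2 family, 3 rose and 4 did not pass the test. Trp53inp1, a stress protein that promotes p53 phosphorylation and autophagy, had 18.7, 21.4, 28.8 and 26.2 CPM in controls and 67.4, 59.9, 63.5 and 51.7 in knockdown, in the order used above. The 2 groups lay far apart. Trp53inp1 rose 2.55-fold, from 23.8 ± 4.59 to 60.6 ± 6.71 CPM (SD, n = 4 each; log2 fold change 1.35, SE 0.16, edgeR adjusted p = 0.000551). No other of the 35 genes had a smaller adjusted p. Aen, an exonuclease that p53 induces during apoptosis, had 75.7, 121, 137 and 123 CPM in controls and 158, 156, 174 and 188 in knockdown. Groups did not overlap, and control replicate 3 was far below the other controls. Aen rose 1.48-fold (log2 fold change 0.56, SE 0.18, edgeR adjusted p = 0.0384), a call lost without knockdown replicate 2, 4 or 5 or control replicate 4 or 6 (adjusted p = 0.0725 to 0.12). The sestrins are antioxidant proteins that restrain mTORC1. Sesn2 had 43.4, 40.8, 55.2 and 46.7 CPM in controls and 65.7, 49.5, 68.2 and 81.0 in knockdown. Knockdown replicate 3 lay among the controls. Sesn2 rose 1.42-fold (log2 fold change 0.51, SE 0.16, edgeR adjusted p = 0.0429), a call lost without knockdown replicate 2, 4 or 5 or control replicate 3, 4 or 6 (adjusted p = 0.0573 to 0.145). Sesn1 had 41.4, 38.9, 42.3 and 45.2 CPM in controls and 51.7, 55.9, 54.5 and 47.9 in knockdown. Its groups did not overlap, yet it missed the threshold (1.25-fold, log2 fold change 0.32, SE 0.11, edgeR adjusted p = 0.0532, and 0.0465 with DESeq2). Eda2r, the receptor of ectodysplasin A2, had 0.217 CPM in control replicate 3 (16 reads), 4.89 to 7.12 in the other controls and 6.68 to 13 in knockdown. Eda2r did not pass with all libraries (2.29-fold, log2 fold change 1.19, SE 0.73, edgeR adjusted p = 0.252) and passed without control replicate 3 (log2 fold change 0.80, adjusted p = 0.028). Zmat3, a zinc finger protein that binds RNA, had 145 to 188 CPM in controls and 150.2 to 231 in knockdown (edgeR adjusted p = 0.353). Perp, a membrane protein of desmosomes, had 7.65 to 10.9 and 8 to 12.4 CPM (edgeR adjusted p = 0.557).

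The promoters of 4 of these genes held a match to the p53 response element, a pair of decamers, and are shown because 3 of the 4 genes, Bax, Ccng1 and Cdkn1a, had more than 2-fold higher levels in knockdown. Sequences are RefSeq's, build GRCm38.p6, read 5′ to 3′ on the gene's strand, with the 10-letter decamers in capitals and the flanking bases in lower case. The element was searched by its consensus (the consensus is its own reverse complement, so 1 search covers both strands) from 250 bases before to 50 after the start. At most 2 mismatches over both decamers and a spacer of at most 13 bases were allowed, and the central C and G of each decamer were fixed. Bax lies at chr7:45467039-45467139 (minus strand), Ccng1 at chr11:40755422-40755521 (minus), Cdkn1a at chr17:29090888-29090978 (plus) and Sesn1 at chr10:41887213-41887315 (plus).
Cdkn1a: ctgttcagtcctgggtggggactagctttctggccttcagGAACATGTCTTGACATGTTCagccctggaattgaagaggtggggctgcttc
Ccng1: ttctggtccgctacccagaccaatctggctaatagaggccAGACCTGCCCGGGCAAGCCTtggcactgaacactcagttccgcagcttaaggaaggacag
Bax: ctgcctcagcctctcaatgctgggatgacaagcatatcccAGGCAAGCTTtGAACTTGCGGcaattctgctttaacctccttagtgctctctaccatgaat
Sesn1: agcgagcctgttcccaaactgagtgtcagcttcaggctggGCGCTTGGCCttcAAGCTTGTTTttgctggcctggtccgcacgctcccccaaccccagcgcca
The Cdkn1a match had 1 mismatch and no spacer and ended 31 bases before the upstream of the gene's listed starts. Another Cdkn1a promoter (chr17:29093519-29093818) held no match, and neither did another Sesn1 promoter (chr10:41810324-41810623). The Ccng1 match also had 1 mismatch and no spacer. The Bax match had 2 mismatches and a spacer of 1 base, and the Sesn1 match 2 mismatches and a spacer of 3 bases. Of the 35 genes, 30 had a promoter in the table, and 4 of those 30 held a match (13.3%), against 1272 of 27025 genes in all (4.71%). The CRE motif TGACGTCA, searched as a second motif that is also its own reverse complement, was found in the promoters of Btg2, Plk2 and Cycs (10% of the 30, against 2.03% of all genes). A match is a description of letters, and the window leaves out elements further away or within introns.

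**Figure D2:**
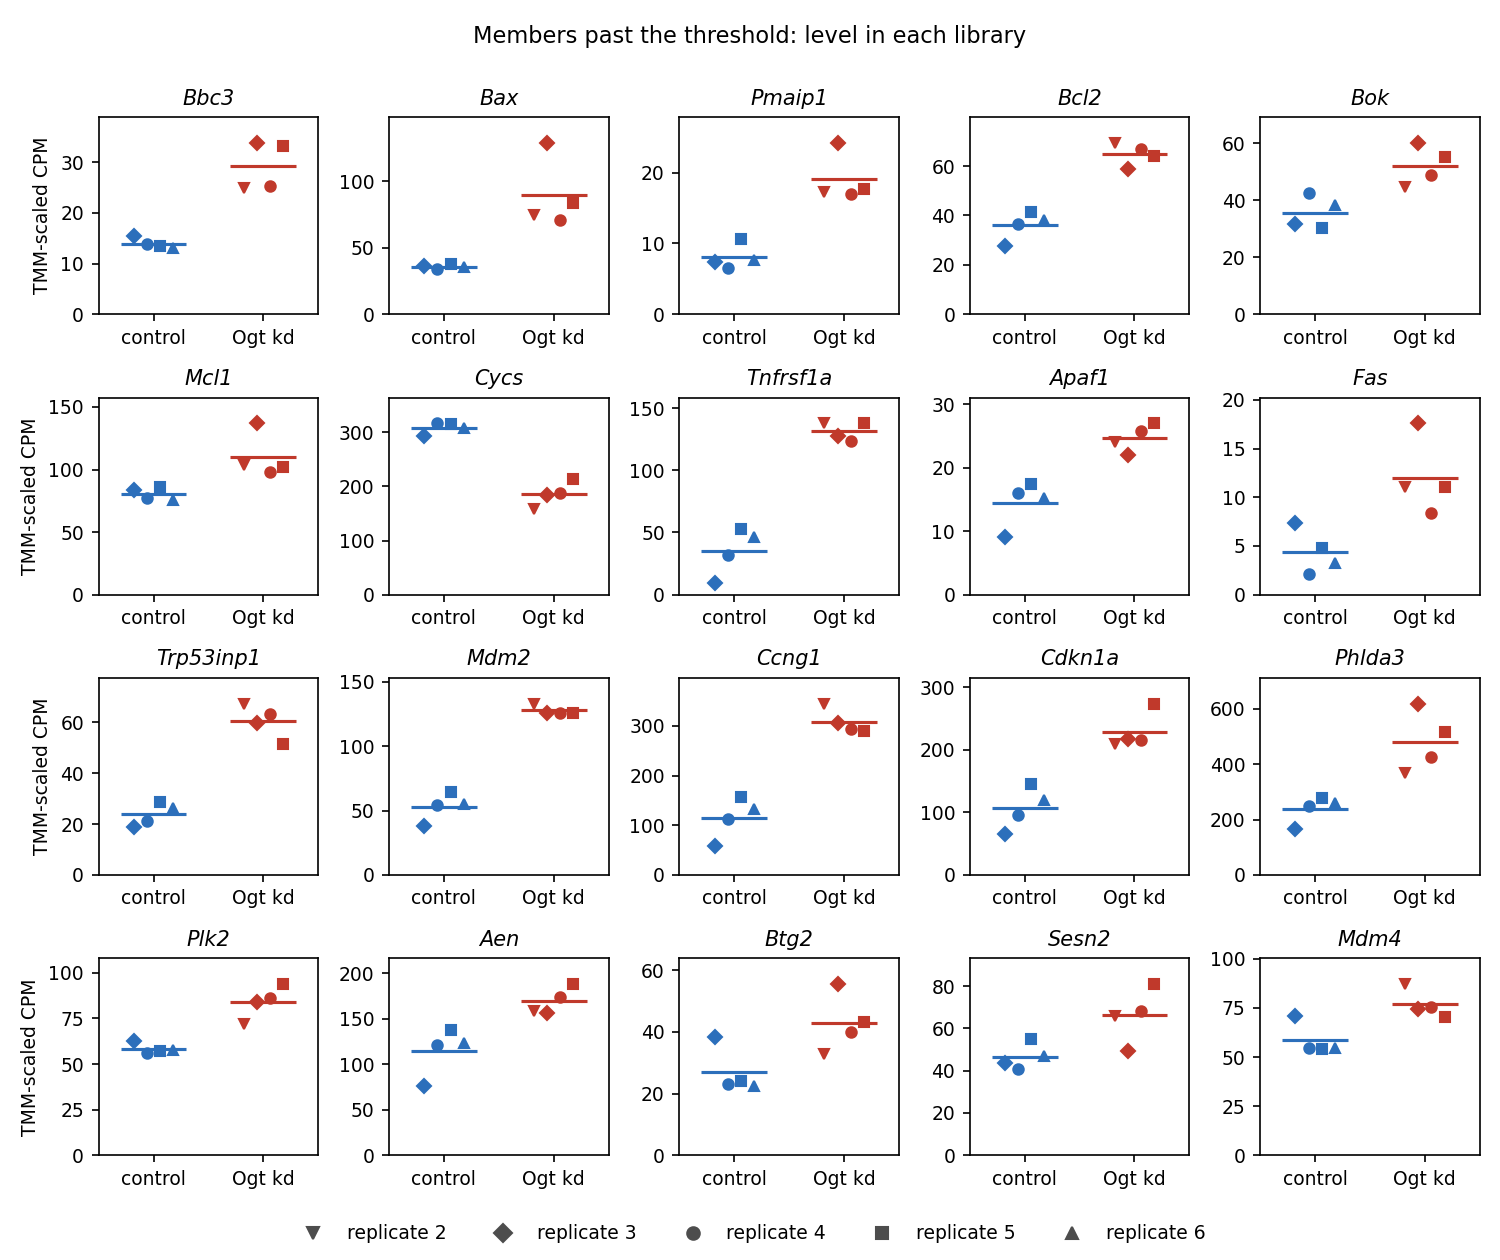
Level in TMM-scaled CPM (y axis, from 0) of the 20 members that passed the test, in each control library (blue) and each Ogt knockdown (kd) library (red), with the symbol shape giving the replicate number and a line at the group mean. The knockdown mean is above the control mean in 19 panels, with overlapping libraries for Btg2, Sesn2 and Mdm4, and all knockdown libraries are below the controls for Cycs.

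In the BCL2 family, 6 of 11 genes rose, 0 fell and 5 did not pass the test, with a median log2 fold change of 0.45. Over all genes tested, 13.4% rose and 15.1% fell. No member was lower at an unadjusted edgeR p under 0.05 (0 of 11, against 4062 of all 19912 genes). Nor was any with DESeq2 or limma-voom (0 and 0, against 9.72% and 24.9% of all genes). Risen genes included promoters and inhibitors of apoptosis. The mean log2 CPM of the 11 genes was 4.67, 4.65, 4.76 and 4.68 in control replicates 3, 4, 5 and 6 and 5.09, 5.51, 5.11 and 5.24 in knockdown replicates 2, 3, 4 and 5. Control replicate 3 did not stand apart from the other controls on this measure.

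Of the 3 pore formers, which open the outer mitochondrial membrane or resemble those that do, 2 rose. Bax (ENSMUSG00000003873.12, chromosome 7, 45111121 to 45116322) had 36.2, 34.3, 37.6 and 35.6 CPM in control replicates 3, 4, 5 and 6 and 74.5, 129, 70.8 and 84.0 in knockdown replicates 2, 3, 4 and 5. All controls were close together, control replicate 3 among them, and knockdown replicate 3 was the highest library. Bax rose 2.49-fold, from 35.9 ± 1.37 to 89.6 ± 27.0 CPM (SD, n = 4 each; log2 fold change 1.32, SE 0.19, edgeR adjusted p = 0.00108). Bok, a relative of Bax, had 31.7, 42.4, 30.3 and 38.3 CPM in controls and 44.5, 60.1, 48.7 and 55.3 in knockdown. The gap between the highest control and the lowest knockdown library was narrow. Bok rose 1.46-fold (log2 fold change 0.55, SE 0.15, edgeR adjusted p = 0.0237), a call lost without knockdown replicate 4 or 5 or control replicate 5 or 6 (adjusted p = 0.0509 to 0.0773). Bak1 had 14.7, 17.2, 16.4 and 15.5 CPM in controls and 19.0, 27.4, 18.4 and 22.2 in knockdown. Its groups did not overlap, but it missed the threshold (1.36-fold, log2 fold change 0.45, SE 0.16, edgeR adjusted p = 0.0586, and 0.0479 with DESeq2).

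Among the 5 BH3-only genes, whose products start the mitochondrial route by binding the other family members, 2 rose. Bbc3, which encodes PUMA, had 15.4, 13.8, 13.5 and 13 CPM in controls and 25.0, 33.8, 25.3 and 33.2 in knockdown, in the same order. The control range was narrow, with control replicate 3 at its top. Bbc3 rose 2.11-fold, from 13.9 ± 1.05 to 29.3 ± 4.84 CPM (SD, n = 4 each; log2 fold change 1.07, SE 0.15, edgeR adjusted p = 0.00105). Pmaip1, which encodes NOXA, had 7.42, 6.56, 10.6 and 7.72 CPM in controls and 17.3, 24.2, 17.0 and 17.7 in knockdown. Here too knockdown replicate 3 was highest, and the groups did not overlap. Pmaip1 rose 2.36-fold (log2 fold change 1.24, SE 0.20, edgeR adjusted p = 0.00176). The other 3 did not pass the test and their groups overlapped. Bcl2l11, which encodes BIM, had 4.64 to 8.08 CPM in controls and 5.69 to 8.24 in knockdown (edgeR adjusted p = 0.532). Bid, which caspase-8 cleaves, had 20.7 to 24.5 and 15.4 to 26.6 CPM (edgeR adjusted p = 0.764). Bad, which growth factor kinases restrain, had 18.3 to 21.0 and 16.2 to 27.0 CPM (edgeR adjusted p = 0.897).

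Of the 3 survival genes, Bcl2 and Mcl1 rose and Bcl2l1 did not pass the test. Bcl2, the founding inhibitor of apoptosis of the family, had 27.8, 36.7, 41.6 and 38.0 CPM in controls and 69.4, 58.9, 66.8 and 64.0 in knockdown. All knockdown libraries lay well above the controls. Bcl2 rose 1.80-fold, from 36.0 ± 5.87 to 64.8 ± 4.48 CPM (SD, n = 4 each; log2 fold change 0.85, SE 0.14, edgeR adjusted p = 0.0023). Mcl1, a short-lived survival protein, had 83.9, 77.3, 85.8 and 76.0 CPM in controls and 104, 137, 97.9 and 102 in knockdown. Groups did not overlap, and knockdown replicate 3 stood above the other libraries. Mcl1 rose 1.37-fold (log2 fold change 0.45, SE 0.13, edgeR adjusted p = 0.0288), a call lost without knockdown replicate 2 or 5 or control replicate 4, 5 or 6 (adjusted p = 0.0539 to 0.0977). Bcl2l1, which encodes BCL-XL, had 190.4, 191, 190.2 and 189.6 CPM in controls and 178, 254, 193 and 214 in knockdown. Its controls were nearly equal, and knockdown replicate 2 lay below them and the other 3 knockdown libraries above (1.10-fold, log2 fold change 0.14, SE 0.13, edgeR adjusted p = 0.456).

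Ratios within a library, on the scale of CPM per kilobase of exon, put promoters beside inhibitors. The ratio of Bax to Bcl2l1 was 0.553, 0.521, 0.575 and 0.547 in control replicates 3, 4, 5 and 6 and 1.22, 1.48, 1.07 and 1.14 in knockdown replicates 2, 3, 4 and 5. The summed level of Bax, Bak1 and Bok over that of Bcl2, Bcl2l1 and Mcl1 was 0.67, 0.76, 0.663 and 0.736 in controls and 1.03, 1.24, 1.01 and 1.11 in knockdown. Neither ratio overlapped between groups. The ratio of Bax to Bcl2 did overlap, at 7.57, 5.43, 5.25 and 5.45 in controls and 6.24, 12.8, 6.16 and 7.62 in knockdown. These ratios are descriptions of message levels with no test.

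Among the 9 genes of the death receptors, caspases and their partners, 3 rose (33.3%), 1 fell (11.1%) and 5 did not pass the test. Over all genes tested, 13.4% rose and 15.1% fell. The median log2 fold change of the 9 was 0.22. Without control replicate 3 it was 0.53, and 5 genes rose and 2 fell, against 18.1% and 16.8% of all genes. With the glial marker score as covariate the median was -0.24. Mean log2 CPM over the 9 genes was 3.68, 3.74, 3.96 and 3.77 in controls and 4.41, 4.43, 4.23 and 4.33 in knockdown.

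Of the 3 death receptors, 2 rose. Tnfrsf1a encodes the main receptor of tumour necrosis factor, a membrane protein of many cell types (ENSMUSG00000030341.18, chromosome 6, 125326325 to 125339447). It had 8.99, 32.1, 53.2 and 46.2 CPM in control replicates 3, 4, 5 and 6 and 138, 128, 124 and 138 in knockdown replicates 2, 3, 4 and 5. Control replicate 3 was far below the other controls, and the knockdown libraries lay close together above them all. Tnfrsf1a rose 3.75-fold, from 35.1 ± 19.5 to 132 ± 6.99 CPM (SD, n = 4 each; log2 fold change 1.91, SE 0.44, edgeR adjusted p = 0.0114), the largest fold of the 35 genes. The rise was 3.00-fold without control replicate 3 (adjusted p = 0.000187), and the call was lost with no filter on low counts (0.0678). Fas had 7.38, 2.09, 4.77 and 3.20 CPM in controls and 11, 17.6, 8.34 and 11 in knockdown. Here control replicate 3 was the highest control, and the groups did not overlap. Fas rose 2.75-fold (log2 fold change 1.46, SE 0.38, edgeR adjusted p = 0.0175). It rose 3.53-fold without control replicate 3 and lost its call without control replicate 6 (adjusted p = 0.0528). Tnfrsf10b, the mouse receptor of the ligand TRAIL, had 2.35, 6.16, 8.37 and 6.48 CPM in controls and 11.3, 10.1, 8.21 and 11.1 in knockdown. Control replicate 5 lay just above the lowest knockdown library. Tnfrsf10b did not pass with all libraries (1.74-fold, log2 fold change 0.80, SE 0.33, edgeR adjusted p = 0.096) and passed without control replicate 3 (log2 fold change 0.53, adjusted p = 0.0429). Astrocyte, oligodendrocyte and microglia marker sums were higher in all knockdown libraries than in any control, as given above, and their part in the levels of these receptors was not tested.

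Downstream of the receptors and mitochondria, the genes did not move one way. Cycs, which encodes cytochrome c of the respiratory chain and of the apoptosome (ENSMUSG00000063694.6, chromosome 6, 50539543 to 50543518), had 293, 317, 315 and 309 CPM in controls and 158, 185, 188 and 214 in knockdown. All knockdown libraries were below all controls. Cycs fell 1.66-fold, from 309 ± 10.8 to 186 ± 22.9 CPM (SD, n = 4 each; log2 fold change -0.73, SE 0.12, edgeR adjusted p = 0.00244). Processed copies of Cycs elsewhere in the genome are near-identical, so its count is uncertain. Apaf1, the scaffold that binds cytochrome c, had 9.15, 16.0, 17.4 and 15.2 CPM in controls and 24.1, 22.0, 25.7 and 27.0 in knockdown. Control replicate 3 was lowest and the groups did not overlap. Apaf1 rose 1.71-fold (log2 fold change 0.78, SE 0.20, edgeR adjusted p = 0.0163), a call lost without knockdown replicate 5 (adjusted p = 0.0549). Casp9, the caspase that APAF1 activates, had 23.5 to 29.0 CPM in controls and 18.1 to 24.5 in knockdown (log2 fold change -0.32, SE 0.14, edgeR adjusted p = 0.115). Without control replicate 3 it passed as lower (log2 fold change -0.39, adjusted p = 0.044). Casp8, the caspase that death receptors activate, had 5.98, 0.877, 0.757 and 0.637 CPM in controls and 2.56, 3.15, 1.84 and 2.03 in knockdown. Control replicate 3 was the highest of all 8 libraries, and the other controls were below every knockdown library. Casp8 did not pass with all libraries (log2 fold change 0.22, SE 0.69, edgeR adjusted p = 0.844) and was 3.17-fold higher without control replicate 3 (log2 fold change 1.66, adjusted p = 0.00229). Diablo, an antagonist of inhibitors of apoptosis, had 2.74 to 3.13 CPM in controls and 1.80 to 2.90 in knockdown (edgeR adjusted p = 0.3). Xiap, such an inhibitor, had 48.0 to 90.2 and 62.1 to 102 CPM (edgeR adjusted p = 0.625).

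**Figure D3:**
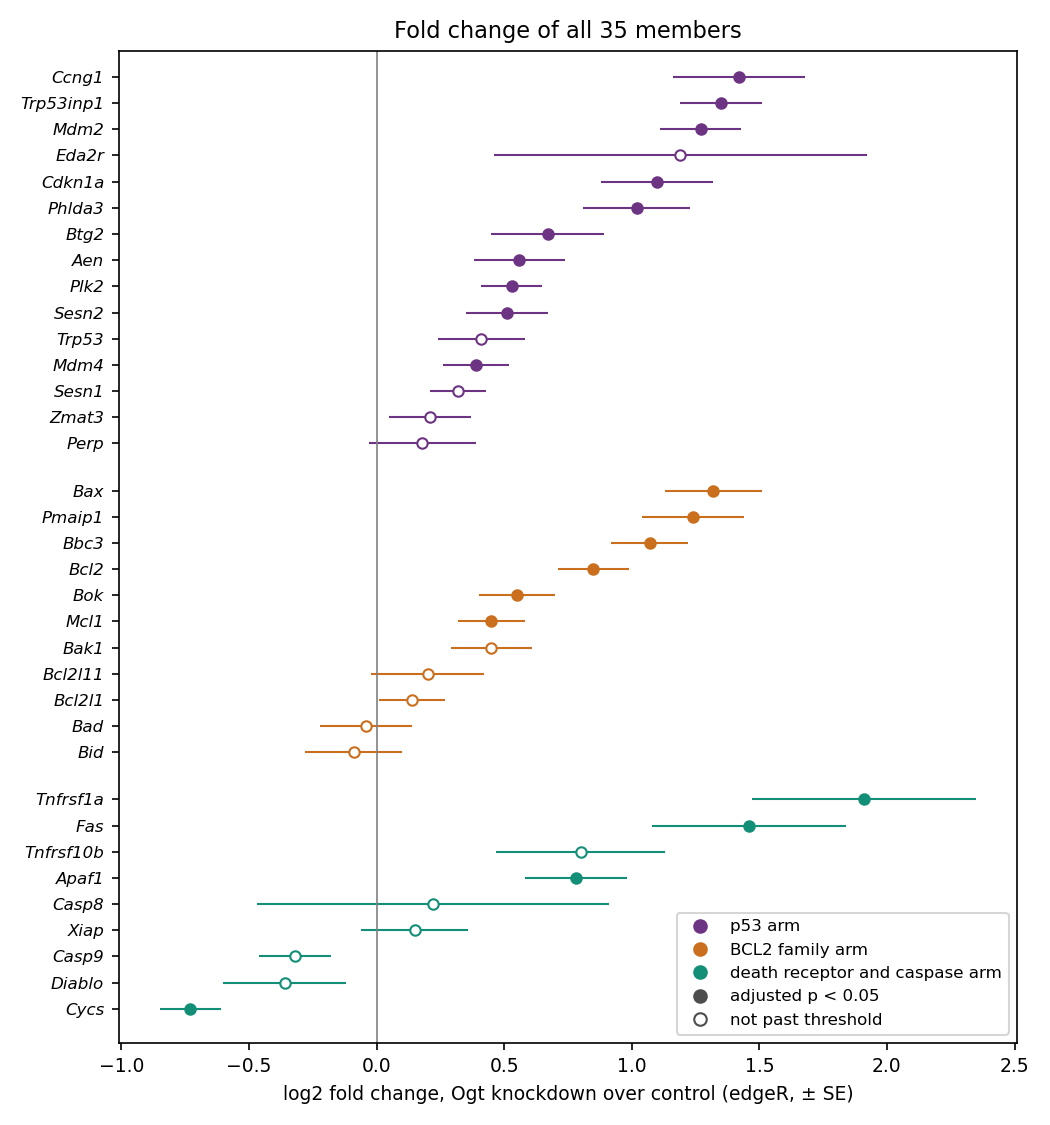
The log2 fold change of Ogt knockdown over control (x axis, edgeR, with bars of ± SE) for each of the 35 members, ordered within the p53 arm (purple), the BCL2 family (orange) and the death receptors and caspases (green). Filled points passed the adjusted threshold of 0.05; all 15 points of the p53 arm lie above 0, from 0.18 for Perp to 1.42 for Ccng1, and Cycs at -0.73 is the lone filled point below 0.

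Reads were counted without strand, so reads of overlapping genes cannot be told apart. Exons of 8 of the 35 genes overlap exons of other annotated genes, by 61.5% of exon bases for Bad, 40.9% for Diablo, 25.5% for Bak1, 17.7% for Bid and 12.2% for Bax. The share was 7.7% for Cdkn1a, 6.1% for Bcl2 and 1.8% for Casp9. Per kilobase of exon, mean control levels ranged from 0.471 CPM per kilobase for Diablo to 152 for Phlda3. On that scale Cycs (90.6), Bcl2l1 (41.5), Ccng1 (32.9) and Cdkn1a (30.0) followed Phlda3, and Trp53 stood at 6.41 in rank 21. In knockdown the level was 309 CPM per kilobase for Phlda3, 87.8 for Ccng1, 64.5 for Cdkn1a, 56.9 for Bax and 54.7 for Cycs.

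Control replicate 3 held the lowest control value for 17 of the 35 genes and the highest for 9. Of the 19 risen genes, 18 still passed as higher without control replicate 3, Sesn2 being the exception, and all 19 did without both libraries numbered 3. The genes for which it was the highest control included Casp8, Btg2, Fas, Mdm4 and Perp, and those for which it was the lowest included Tnfrsf1a, Ccng1, Mdm2, Cdkn1a, Eda2r and Tnfrsf10b. Its vascular, astrocyte and dopamine neuron marker sums are given above, and their part in these positions was not tested.

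**Figure D4:**
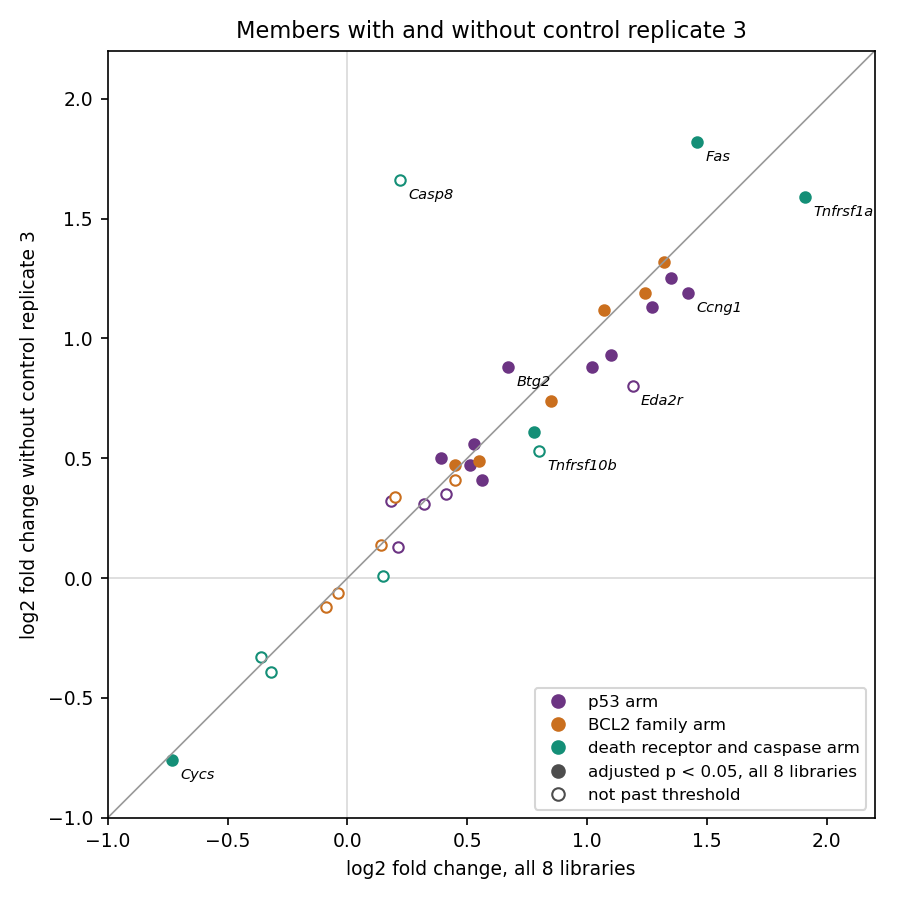
Log2 fold change of each of the 35 members with all 8 libraries (x axis) and without control replicate 3 (y axis), with a diagonal line of equal values; filled points passed the adjusted threshold with all 8 libraries. Casp8 moves from 0.22 to 1.66, Fas, Btg2, Eda2r, Tnfrsf10b, Ccng1 and Tnfrsf1a move less, and Cycs stays near the line.

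Wider lists of the same pathways were read beside these genes. Of 38 other genes listed as p53 targets, 37 were tested (Cdkn2a was not). Of these, 18 rose, 1 fell and 18 did not pass the test, with a median log2 fold change of 0.56. The risen genes include Trp63 and Trp73, which encode relatives of p53. The 18 became 11 without control replicate 4, where 8.12% of all genes rose, against 13.4% with all libraries. At an unadjusted edgeR p under 0.05, 22 were higher and 3 lower, against 3939 and 4062 of all 19912 genes. Genes that fell numbered 2 with DESeq2 and with limma-voom (9.72% and 24.9% of all genes). They also numbered 2 without control replicate 3 and without both libraries numbered 3 (16.8% and 23.3%). Ercc5, a nuclease of DNA excision repair, rose from 25.6 ± 2.53 to 54.3 ± 3.06 CPM (SD, n = 4 each; 2.12-fold, edgeR adjusted p = 0.00043). Ckap2, a cytoskeleton protein of mitosis, rose from 4.82 ± 1.87 to 17.8 ± 4.15 CPM (3.69-fold, edgeR adjusted p = 0.00159). Tap1, a peptide transporter of antigen presentation that interferon also induces, rose 2.86-fold (edgeR adjusted p = 0.00192). Gtse1, a microtubule protein that acts on p53, rose 2.88-fold (edgeR adjusted p = 0.00258), and Trp63, a p53 relative, rose 2.96-fold from a low level of 1.56 ± 0.446 CPM (edgeR adjusted p = 0.00304). The gene that fell with edgeR and all libraries was Tigar, a phosphatase that slows glycolysis. It had 59.9 to 65.7 CPM in controls and 23.7 to 30.1 in knockdown. Tigar fell 2.35-fold (log2 fold change -1.23, SE 0.12, edgeR adjusted p = 0.000237), opposite in direction to the 18 genes of this list that rose.

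Of 44 other apoptosis genes, 38 were tested, and 12 rose (31.6%), 8 fell (21.1%) and 18 did not pass the test. Over all genes tested, 13.4% rose and 15.1% fell. The median log2 fold change of the 38 was 0.22. The 8 became 5 without knockdown replicate 4 or control replicate 4, 5 or 6 (10.4% to 11.8% of all genes fell in these fits, against 15.1% with all libraries) and 4 without knockdown replicate 5 (12.5%). The median was 0.02 without knockdown replicate 2, 0.11 without control replicate 4, 0.08 without control replicate 6 and 0.33 without control replicate 3. Named below are genes with the smallest p among those that rose, which act at receptors or are caspases. Cflar, which encodes the caspase-8 inhibitor c-FLIP, rose from 11.4 ± 1.13 to 26.6 ± 3.13 CPM (SD, n = 4 each; 2.32-fold, edgeR adjusted p = 0.000526). Casp12 rose 4.66-fold (edgeR adjusted p = 0.00101) and Casp4, an inflammatory caspase, 6.47-fold from 0.839 ± 0.275 CPM (0.00215). Ripk1, a kinase of the tumour necrosis factor receptor complex, rose 2.12-fold (edgeR adjusted p = 0.00435). Microglia marker sums were also higher in every knockdown library than in any control, and their part in the rises was not tested. The genes with the smallest p among those that fell were Dffa, Bnip3l, Vdac1, Vdac2 and Aifm1. Dffa, the inhibitor of the nuclease that cuts DNA in apoptosis, fell from 66.4 ± 3.10 to 19.0 ± 4.40 CPM (SD, n = 4 each; 3.5-fold, edgeR adjusted p = 0.000241). The products of the other 4 lie in mitochondria: Bnip3l, a mitophagy receptor, fell 1.51-fold (edgeR adjusted p = 0.00894), Vdac1 and Vdac2, channels of the outer membrane, fell 1.55-fold (0.0139) and 1.53-fold (0.0169), and Aifm1 fell 1.59-fold (0.0228). The call of Aifm1 was lost without knockdown replicate 5 (adjusted p = 0.0561).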

How the data were processed

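The authors deposited a table of raw read counts (whole numbers) by gene and library, 8 libraries in all. Counts were made over exons with featureCounts 2.0.3 and the GENCODE vM30 annotation, without strand, per the file headers. Per the submitters' processing notes, FastQC, Trimmomatic, STAR and mm10 were used; vM30 describes GRCm39, a later build, and the conflict was not resolved. Coordinates are the table's, except promoters (RefSeq, GRCm38.p6). Symbols came from GENCODE by gene ID (52073 of 56691 matched; the others held 0.327% to 1.81% of reads). Genes were filtered with filterByExpr, scaled by TMM and tested with edgeR 4.0.16 (quasi-likelihood, robust, two-sided; R 4.3.3), with Benjamini-Hochberg adjustment over all 19912 genes. The log2 CPM values used a prior count of 2. The test was checked on simulated data. As alternatives, scaling was by RLE or upper quartile, and the filter was left out or made strict (4 or more libraries with CPM of 1 or more). DESeq2 1.42.0 and limma-voom (limma 3.58.1) were also run, limma-voom always with sample quality weights. Further fits used a replicate block, used a marker score as covariate, left out each library in turn or left out both libraries numbered 3. Every member is accounted for, and members called or not overlapping are given per library; of each wider list, the called genes of smallest p are named, up to 5 per direction, except for an item not reported here. The members and lists were chosen with earlier results of these data known.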

Additional observations from a re-analysis of the deposited data

Results flagged for a closer look

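Single libraries stood far from the rest of their group of 4 for 9 of 70 groups (35 genes in 2 conditions), where chance gives about 1 in 20 groups; the library was control replicate 3 in 4 cases and knockdown replicate 3 in 3. Control replicate 3 was high for Casp8, at 5.98 CPM against 0.637 to 0.877 in the other controls. It was also high for Btg2 (38.2 CPM, others 22.4 to 24.2), for Mdm4 (70.9 CPM, others 54.2 to 54.6) and for Perp (10.9 CPM, others 7.65 to 7.68). Knockdown replicate 3 was high for Mcl1 (137 CPM, others 97.9 to 104), Pmaip1 (24.2 CPM, others 17.0 to 17.7) and Bad (27.0 CPM, others 16.2 to 16.8). Knockdown replicate 5 was high for Cdkn1a (274 CPM, others 209 to 218), and knockdown replicate 2 for Mdm2 (133 CPM, the others at 126 each), a small gap within a tight group.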

How the results depend on the processing

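No result for the 35 genes changed direction while called. Of 594 values in alternatives, 493 kept their side of the threshold, 72 lost it and 29 gained it, and 6 genes (Perp, Bcl2l1, Bcl2l11, Bid, Bad and Xiap) kept theirs throughout. The 19 risen genes numbered 20 with RLE (13.8% of all genes), 22 with upper quartile scaling (16%), 14 with no filter (6.04%), 21 with the strict filter (17.8%), 21 with DESeq2 (10.7%), 26 with limma-voom (26.4%) and 12 to 21 with a library left out; fallen genes numbered 1, but 3 with limma-voom, 2 without both libraries numbered 3 and 1 to 2 with a library left out. With the marker score as covariate, 0 rose and 0 fell (at an unadjusted p under 0.05, 5 and 0), and 0 of all genes changed (603 higher and 854 lower unadjusted). The count of all genes called was 5668, and 10218 with limma-voom, 9565 without both libraries numbered 3 and 3876 to 7198 with a library left out. The median of the death receptor and caspase arm, 0.22, was 0.49 with limma-voom, -0.24 with the covariate, 0.54 without both libraries numbered 3 and 0.14 to 0.53 with a library left out. That of other apoptosis genes, 0.22, was 0.37 without both libraries numbered 3 and 0.02 to 0.33 with a library left out. Over all alternatives the median of the p53 arm lay between 0.42 and 0.67, that of the BCL2 family arm between 0.33 and 0.55 and that of other p53 target genes between 0.51 and 0.70. The cause of these shifts was not tested.

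The replicate numbers 3, 4 and 5 occur in both groups, but same-numbered libraries deviated together only weakly (r = 0.104, 0.0987 and 0.0422). Those of replicates 3 and 4 were the highest of all pairs across groups. Knockdown replicate 5 correlated more with control replicate 6 (0.0808) than with control replicate 5. No label says how the numbers relate, and correlations this weak cannot show whether the libraries were paired. With the replicate block, edgeR called 7 of the 35 genes higher and 0 lower, against 2.41% and 3.91% of all genes. At an unadjusted p under 0.05, 18 were higher and 1 lower, against 2767 and 3076 of all 19912 genes. The number of all genes called was 1258, and medians were 0.53 for the death receptor and caspase arm and 0.02 for other apoptosis genes. The 7 were Mdm2, Cdkn1a, Trp53inp1, Bax, Bbc3, Bcl2 and Fas. The lowest counts were 16 reads for Eda2r and 42 for Casp8, both above the floor of 3 reads. DESeq2 gave no adjusted p for Casp8.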
